A study of Homo sapiens with 2 samples.

Results

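The miRNAs described here are the 3p arms of the hairpins numbered miR-6726 to miR-6895, a stretch of the miRNA catalogue rich in mirtrons and other hairpins cut from short introns. They were chosen by name alone, as every probe called hsa-miR-N-3p with N in that range, letter suffixes included. The rule found 168 probes among the 2565 miRNA probes of the array. RNA came from exosomes, vesicles released into the medium, of HuH-7, an established human hepatocellular carcinoma line. Of the 2 samples, 1 carries the label HuH-7-P, the other HuH-7-M, with letters the labels do not spell out, and each was hybridised to 1 single-colour (Cy5) 3D-Gene array. Both cultures were kept in DMEM with fetal bovine serum and antibiotics, moved to advanced DMEM, and their vesicles were filtered and pelleted by ultracentrifugation; the labels name no treatment, clone or passage. The extraction text of the labels speaks of cells, although the source of both samples is given as vesicles. With 1 array per culture and 1 spot per probe, no difference below has a replicate and no p-value was computed.

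A mirtron is a short intron that, once spliced out and debranched, folds into a hairpin that Dicer can cut without prior cleavage by Drosha. Its 3p arm ends at the 3′ splice site of the intron, so it carries the pyrimidine-rich tract and the closing AG of a splice acceptor, while the 5p arm begins near the 5′ splice site and is often rich in G. Levels of such small RNAs are generally low, and for most of them no target or function is established. The comparison asks which of these RNAs differ between vesicles of cultures that the series title links to intrahepatic metastasis.

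Most sequences carried the 3′ end of a splice acceptor. The naming rule reads no sequence, but the range is rich in mirtrons, whose 3p arms end in this way. The counts below thus describe the range and are not independent of its choice. RefSeq (GRCh38.p14) listed a mature sequence for 149 of the 168 members and a hairpin holding it for 138. Of the 149, 116 (77.9%) ended in AG and 99 (66.4%) in CAG, against 67 of 637 (10.5%) and 42 (6.59%) of the 3p probes outside the number range. Pyrimidines made up a median of 72.7% of the bases (quartiles 66.7% and 77.3%), compared with 54.5% in the other 3p probes and 31.8% in the 5p arms of the same range. A median member of 21 bases held 10 C, 6 U, 3 G and 2 A. In 107 of the 138 hairpins (77.5%) the mature 3p arm reached the last base of the hairpin, and 133 of the hairpins ended in AG. Only 14 of the 138 (10.1%) both began with GU and ended with AG, so that most annotated hairpins do not have the outline of a whole GU-AG intron. Of the 138, 119 (86.2%) lay within the span of a protein-coding gene on the same strand; the gene table used gives spans only, so exon and intron could not be assigned from it. Chromosome 19 carried 20 of them and chromosome 1 carried 18.

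The hairpins of 4 members on which the results turn are shown 5′ to 3′, with the 3p arm in capitals, so that the end of the arm can be compared with the end of the hairpin.
miR-6765: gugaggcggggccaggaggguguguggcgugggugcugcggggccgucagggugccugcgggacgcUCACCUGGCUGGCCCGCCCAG
miR-6836: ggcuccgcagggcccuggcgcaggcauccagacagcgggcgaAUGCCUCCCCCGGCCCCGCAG
miR-6872: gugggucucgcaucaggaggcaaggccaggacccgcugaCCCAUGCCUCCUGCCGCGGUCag
miR-6840: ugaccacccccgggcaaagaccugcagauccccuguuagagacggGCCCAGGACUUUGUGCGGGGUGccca
The miR-6765 hairpin (chr14:105150778-105150864, minus strand) lies within JAG2, which encodes a Notch ligand, and miR-6836 (chr7:2257515-2257577, minus strand) within SNX8, a sorting nexin gene. In both the capitals run to the hairpin's own closing AG. The miR-6872 hairpin (chr3:50273236-50273297, plus strand) lies within SEMA3B, a secreted semaphorin gene, and its 3p arm stops 2 bases short of the hairpin's end, directly before the final AG. The miR-6840 hairpin (chr7:100356651-100356721, plus strand) lies within the read-through locus STAG3L5P-PVRIG2P-PILRB. Its 3p arm is 45.5% pyrimidine and has no terminal AG, so it lacks the end that most members carry.

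Most members gave a weak signal that nonetheless exceeded the empty spots. Signal here is the spot median intensity minus the trimmed mean of the 320 BLANK (empty) spots of the array, and a probe counted as above background when its spot exceeded the BLANK mean by 2 SD, a signal of 2.62 on HuH-7-P against 2.44 on HuH-7-M. By this limit 150 members were above background on HuH-7-P, 147 on both (87.5%) and 153 on HuH-7-M, while 62.1% of all miRNA probes were above it on both. The 5p arms of the range reached 95.2% (159 of 167) and the other 3p probes 54.1% (387 of 715). The signal of the 168 members ran from -7.97 through a median of 25.3 to 3759 on HuH-7-P, and from -3.49 through 24.6 to 2907 on HuH-7-M. The median of all miRNA probes was lower, at 10.9 on HuH-7-P against 10.8 on HuH-7-M. That of the other 3p probes was 5.54 and 4.99, and that of the 5p arms 158 and 166. The median member was thus weak in signal, yet brighter than the median probe of the array. Spots named No Probe, which are further controls, read 20.1 ± 7.20 above BLANK on HuH-7-P against 22.3 ± 5.73 on HuH-7-M (SD, all n = 85 spots per array). The median member therefore lay close to the No Probe spots. A stricter limit was drawn from them as their mean plus 2 SD after leaving out their top and bottom 5%. It was 27.2 on HuH-7-P against 31.2 on HuH-7-M. Above it stood 65 members on both arrays (38.7%), against 30.8% of all probes and 79.6% of the 5p arms.

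**Figure D1:**
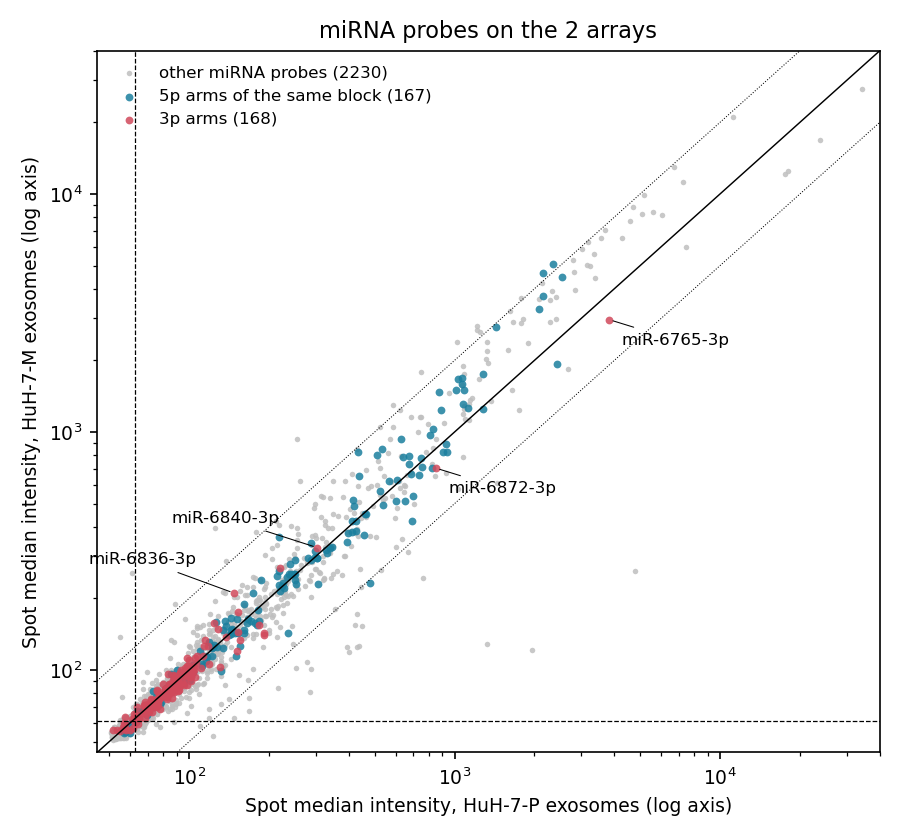
Spot median intensity of each miRNA probe on the HuH-7-P array (horizontal, log axis) and the HuH-7-M array (vertical, log axis), before background subtraction. Dashed lines mark the BLANK limits, the solid line equality and the dotted lines a 2-fold ratio; the 168 3p arms crowd at the dim end with miR-6765-3p and miR-6872-3p set apart from them, while the 167 5p arms spread along the diagonal.

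For the labelled cell type, 4 of 5 hepatocyte miRNAs were above background on both arrays, with miR-122-5p at a signal of 40.0 on HuH-7-P against 67.8 on HuH-7-M. So were 4 of 5 blood-cell miRNAs, 3 of 5 of muscle and neurons, and 0 of 4 of endothelium and stroma. The blood-cell signals were all under the No Probe limit except miR-486-5p on HuH-7-P (30.6). Above that limit on both arrays were 2 of 5 hepatocyte miRNAs, 0 of 5 of blood cells and 1 of 5 of muscle and neurons. The last was miR-124-3p, at 46.5 on HuH-7-P against 47.4 on HuH-7-M. By the BLANK limit the hepatocyte and blood-cell counts were equal, so that count does not separate these cell types. Among the muscle and neuron list miR-206 read 109 and 17.3 (normalized log2 difference -1.21). The 3p arms of 12 earlier described mirtrons (miR-877, miR-1224 to miR-1229 and others) were all above background on both arrays, with signals of 8.52 to 122 on HuH-7-P against 12.2 to 153 on HuH-7-M. None of the 12 was 2-fold apart, their median difference was 0.048, and the highest was miR-1225-3p at 0.72 (signals 74.5 and 153).

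The 10 brightest members are shown as mature sequences, with the seed (bases 2 to 8, which pair with a target) in capitals, to display the C-rich run and the AG end beside the exceptions.
miR-6765-3p: uCACCUGGcuggcccgcccag
miR-6872-3p: cCCAUGCCuccugccgcgguc
miR-6840-3p: gCCCAGGAcuuugugcggggug
miR-6805-3p: uUGCUCUGcucccccgcccccag
miR-6836-3p: aUGCCUCCcccggccccgcag
miR-6776-3p: cAACCACCacugucucuccccag
miR-6801-3p: aCCCCUGCcacucacuggcc
miR-6796-3p: gAAGCUCUccccuccccgcag
miR-6766-3p: uGAUUGUCuucccccacccuca
miR-6800-3p: cACCUCUCcuggcaucgcccc
Of these, 5 end in AG, and no seed occurs in more than 1 of them.

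miR-6765-3p was by far the brightest member, its signal being 3759 on HuH-7-P against 2907 on HuH-7-M. It ranked 17th and 41st among all miRNA probes by spot intensity and was the only member with a signal over 1000 on both arrays. Of the signal summed over the members above BLANK it held 39.2% on HuH-7-P against 33.4% on HuH-7-M. miR-6872-3p followed with 789 and 646, and miR-6840-3p with 244 and 268. Only these 3 and miR-6805-3p, whose hairpin lies within the ribosomal protein gene RPL28 (chr19:55388181-55388242, plus strand), had a signal over 100 on both arrays, the last at 161 and 209. In all 7 members exceeded 100 on HuH-7-P against 6 on HuH-7-M. The remaining 6 of the 10 brightest had signals of 87.8 to 131 on HuH-7-P against 80.9 to 152 on HuH-7-M. Probes differ in sequence and hybridise differently, so these figures order spots and not RNA amounts.

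No 3p arm reached a 2-fold difference between the exosomes of the cultures. Differences are log2 values, those of HuH-7-M less those of HuH-7-P, after normexp background correction on the BLANK spots with an offset of 50 and quantile normalization over all miRNA probes. Among the 147 measured members, 0 were 2-fold or more above HuH-7-P in HuH-7-M, where 0.439% of all 1593 measured probes were. At least 2-fold lower were 0 members, against 1.69% of all measured probes. Their median difference was 0.018 (quartiles -0.051 and 0.095), beside 0.010 for all measured probes (quartiles -0.066 and 0.095). Above 0 lay 86 of the 147 (58.5%), and 53.9% of all measured probes.

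Repeat spots of a control probe within an array had a median log2 SD of 0.078 (13 control probes with 8 or more spots), which gives a spread of 0.11 for a difference between single spots. This covers spots within an array and leaves out any spread between cultures, labellings or hybridisations. Beyond 2 such spreads (0.22), 8 members lay higher in HuH-7-M (5.44%), against 12.9% of all measured probes. Lower lay 6 members (4.08%), against 10.0%. Because the offset draws differences of dim probes toward 0 and most members were dim, these shares cannot be read as steadiness of the RNAs. After plain BLANK subtraction, without the offset, 32.0% of the members lay beyond 0.22 higher and 21.8% lower, against 30.9% and 25.3% of all measured probes. In the authors' deposited values these shares were 29.9% and 22.4%, against 32.2% and 25.1%. The shares of the members were thus near those of all probes on both scales without an offset, and the spread of spots as dim as the members was not measured there.

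**Figure D2:**
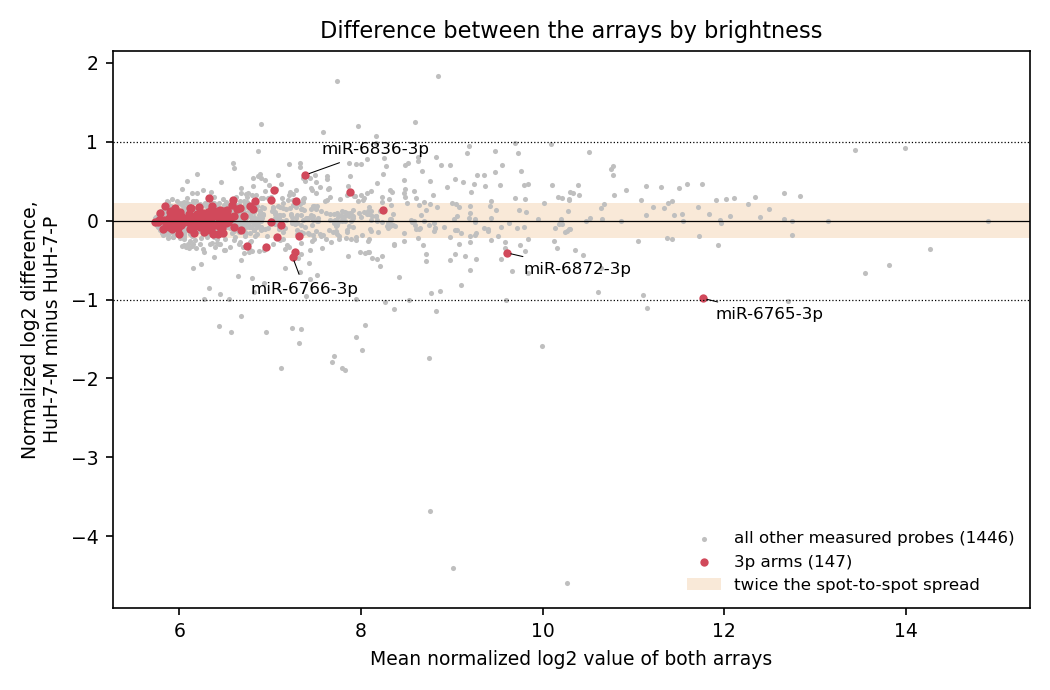
Normalized log2 difference (HuH-7-M less HuH-7-P) against the mean normalized log2 value of both arrays, for the 147 measured 3p arms and all other probes above background on both arrays. The band marks 2 spot-to-spot spreads (0.22) and dotted lines a 2-fold difference; miR-6765-3p is the lowest 3p arm at -0.98 and miR-6836-3p the highest at 0.58.

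The lowest value among the members was that of miR-6765-3p, at -0.98, just inside the 2-fold limit. Its size depended on how the arrays were scaled. It was -0.37 when the arrays were not scaled to each other, -0.36 when scaled to the median measured probe, -0.81 after cyclic loess and -0.34 in the authors' deposited values. It passed 2-fold after plain BLANK subtraction (-1.02) and with the scanner's background column (-1.16). Bright probes as a group lay on the other side of 0 before scaling: of 78 probes with a signal over 1000 on both arrays, 65 were brighter on HuH-7-M, with a median BLANK-subtracted log2 ratio of 0.63 (quartiles 0.26 and 0.85), and 5 had a lower ratio than miR-6765-3p. After normalization the median of the 78 was 0.052 and 2 lay below miR-6765-3p. miR-6765-3p was thus dimmer on HuH-7-M in each of these settings.

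The next lowest members were miR-6766-3p (signal 131 on HuH-7-P against 80.9 on HuH-7-M, difference -0.46), miR-6872-3p (789 and 646, -0.41) and miR-6796-3p (131 and 84.9, -0.40). The hairpin of miR-6766 lies within POLG (chr15:89326739-89326810, minus strand), the gene of the mitochondrial DNA polymerase, and that of miR-6796 within PLD3 (chr19:40369846-40369907, plus strand). miR-6798-3p read 91.1 and 61.4 (-0.33) and miR-6859-3p 71.3 and 44.3 (-0.33). miR-6729-3p (95.3 and 75.4) and miR-6776-3p (124 and 96.2) completed the 8 lowest at -0.21 and -0.20. These 8 had signals of 44.3 to 3759, above the median member, and cleared the No Probe limit on each array. With the background column miR-6872-3p (0.42), miR-6776-3p (0.023) and miR-6798-3p (0.0046) lay above 0. The miR-6859-3p sequence, uGACCCCCaugucgccucuguag, is encoded at 4 loci on chromosomes 1, 15 and 16, within spans of WASH-family pseudogenes (strand not used here), and its probe cannot separate them.

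The highest value was that of miR-6836-3p, at 0.58, with signals of 87.8 on HuH-7-P against 152 on HuH-7-M. miR-6804-3p (64.7 and 98.7, 0.38) and miR-6805-3p (161 and 209, 0.36) came next. The miR-6804 hairpin lies within PPP6R1 (chr19:55230885-55230952, minus strand), a regulatory subunit gene of protein phosphatase 6. miR-6770-3p, encoded at 3 loci on chromosome 16, read 23.1 and 37.8 (0.28). miR-6865-3p (38.6 and 53.9), miR-6880-3p (68.8 and 89.6) and miR-6743-3p (55.3 and 74.4) had differences of 0.26, 0.26 and 0.25, and miR-6801-3p (93.5 and 116) one of 0.24. Without an offset these values were larger, miR-6836-3p reaching 0.83 and miR-6770-3p 0.76. Scaling to the Spike Control spots, which shifted the median of all measured probes by -0.59, put all 8 below 0, with miR-6836-3p at -0.034, and miR-6766-3p (-1.05) and miR-6796-3p (-1.01) past 2-fold lower. On that scale 73 of all 1593 measured probes were at least 2-fold lower, against these 2 of the 147 members. With the background column 6 of the 8 were below 0, miR-6836-3p at -0.059; miR-6770-3p and miR-6743-3p were not.

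Without an offset 3 members passed 2-fold. After plain subtraction of the BLANK mean, 2 members were at least 2-fold higher (1.36%, against 3.08% of all measured probes). They were miR-6871-3p (signal 3.87 on HuH-7-P against 11.1 on HuH-7-M, 1.56) and miR-6774-3p (3.52 and 6.81, 1.06), both under the No Probe limit and named here after their values were seen. Lower by 2-fold was 1 member (0.680%, against 4.71%), miR-6765-3p. In the authors' deposited values, matched to the probes they were made from, 1 member was at least 2-fold higher, again miR-6871-3p at 1.55. This was 0.680% of the members, against 3.91% of all measured probes with a value. At least 2-fold lower were 0 members, against 4.16% of those probes.

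Above background on only 1 array were 9 of the 168 members, 3 on HuH-7-P against 6 on HuH-7-M, with signals of 6.36 or less. Of all 2565 miRNA probes, 76 were above it only on HuH-7-P and 78 only on HuH-7-M. On the normalized scale, where the offset of 50 draws differences of dim probes toward 0, the bounds of these 9 members were small. Their differences lay within 2 spot spreads (0.22), and the bounds make no allowance for that spread. miR-6842-3p stood at least 1.07-fold above HuH-7-P in HuH-7-M (signal 2.14 and 6.36), miR-6869-3p at least 1.04-fold (-2.37 and 4.50) and miR-6854-3p at least 1.03-fold (2.36 and 4.22). On HuH-7-P the bounds were at least 1.03-fold for miR-6755-3p (4.41 and 0.494), 1.02-fold for miR-6733-3p (3.56 and 2.37) and 1.002-fold for miR-6758-3p (2.72 and 0.895). On the Spike Control scale the HuH-7-M bounds did not hold and the HuH-7-P ones were 1.5-fold to 1.55-fold. On neither array were 12 members above background, against 818 of all 2565 miRNA probes. The 12 included miR-6888-3p, miR-6838-3p and miR-6839-3p.

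Both arms of 167 hairpins were on the array, and they gave unlike probe signals. At least 1 arm was above background for 164 hairpins on HuH-7-P against 165 on HuH-7-M. The 5p spot was the brighter in 140 of them on each array (85.4% and 84.8%). Both arms were above background on HuH-7-P in 145 hairpins, only the 5p arm in 15 and only the 3p arm in 4; on HuH-7-M these counts were 146, 13 and 6. Among the 142 hairpins with both arms above background on both arrays, the widest ratios toward the 5p spot, averaged over the arrays, were those of miR-6781 (3p 3.56 and 5p 1217 on HuH-7-P), miR-6808 (4.85 and 547), miR-6821 (6.90 and 684) and miR-6799 (10.7 and 830). Toward the 3p spot, among the same hairpins, they were those of miR-6840 (3p 244 and 5p 9.81 on HuH-7-P), miR-6872 (789 and 32.4), miR-6836 (87.8 and 13.1) and miR-6770 (23.1 and 4.11). Hairpins with an arm under background have no ratio here; among them miR-6869 read 1373 in the 5p and -2.37 in the 3p spot on HuH-7-P, and miR-6739 read 16.4 in the 3p and -2.10 in the 5p spot, both named after their values were seen. For miR-6765 the 3p spot read 3759 and the 5p spot 1024. The arms differ in base composition, which was not separated from their amounts.

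Across hairpins, the differences of the 3p and 5p arms between the cultures showed little relation. Over 142 hairpins with both arms measured on both arrays, the 3p and 5p differences had Pearson's r = -0.040 and Spearman's rho = 0.055, as a description over points that share 2 arrays and their scaling. The arms lay on the same side of 0 in 79 of these hairpins. Most measured differences were small. Beyond 2 spot spreads (0.22) lay 14 of the 147 measured 3p arms and 48 of the 159 measured 5p arms. How far spot-to-spot spread alone lowers r and rho was not tested. miR-6765-5p read 1024 and 1439 (0.13), against -0.98 for the 3p arm. miR-6872-5p read 32.4 and 32.1 (-0.00062), against -0.41. miR-6836 was higher in both arms, with the 5p arm at 13.1 and 22.6 (0.22). miR-6880-5p read 633 and 363 (-0.81), opposite to its 3p arm at 0.26. The 5p differences ranged from -1.12 to 0.86 and the 3p differences from -0.98 to 0.58. The 5p arms were mostly the brighter ones, and the part of the offset in these ranges was not tested. After plain BLANK subtraction, 25.8% of the measured 5p arms lay beyond 0.22 higher and 15.7% lower, against 32.0% and 21.8% of the 3p arms.

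**Figure D3:**
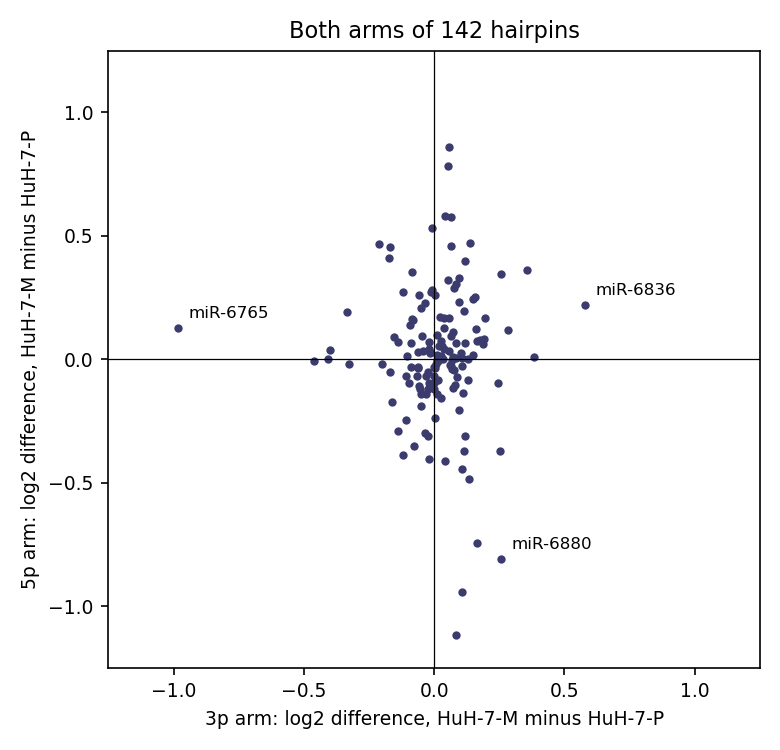
Normalized log2 difference (HuH-7-M less HuH-7-P) of the 3p arm (horizontal) and the 5p arm (vertical) of 142 hairpins whose arms were both above background on both arrays. Each point is 1 hairpin; miR-6765 lies far left with a 5p arm at 0.13, and miR-6880 has a 3p arm above 0 and a 5p arm below it.

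Among the members, spot intensity followed the C content of the miRNA. Over the 149 members with a sequence, the number of C bases and the log2 spot median had Pearson's r = 0.35 and Spearman's rho = 0.62 on HuH-7-P, and 0.37 and 0.61 on HuH-7-M. The number of G bases had rho = -0.26 and -0.25. In the 5p arms of the range rho was 0.68 for G and 0.055 for C on HuH-7-P over 142 probes. In the 637 other 3p probes it was 0.28 for G and 0.40 for C. With GC content rho was positive in each of these groups, at 0.48 in the members, 0.75 in the 5p arms and 0.73 in the other 3p probes on HuH-7-P, so a relation of intensity with composition was not particular to the members. These are descriptions over probes that share an array and differ in composition. Of 26 members with up to 7 C bases, 13 were above background on both arrays and their median signal on HuH-7-P was 4.63. Of 27 members with 12 or 13 C bases all 27 were, with a median of 39.1. C content and its cuts were chosen after seeing the data. In terciles of GC content, 75.4%, 93.3% and 97.7% of the members were above background on both arrays, from low to high GC. The median difference between the cultures in these terciles was 0.033, 0.0085 and 0.052, with overlapping quartiles. Members ending in AG had a median signal of 22.1 on HuH-7-P and held a median of 9 C, and those with another end 35.8 and 11 C.

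The names of these miRNAs depend on which deposited file is read. In the authors' deposited table the values of 156 members could be traced to a scanner probe, to a relative tolerance of 1e-06, and 0 of them stood under the name the scanner files give. Of all 1739 traced values, 699 (40.2%) stood under the scanner's name, so the displacement touches only part of the table. All 156 values of the members were displaced by 2 rows, and since the arms alternate in that table, 151 stood under the 3p arm of another hairpin of the range. The value of the probe named miR-6765-3p by the scanner stands there under miR-6764-3p, and that of miR-6836-3p under miR-6780b-3p. Over 129 members with a sequence under both names, GC content and spot median had rho = 0.43 by the scanner's names and 0.17 by the table's on HuH-7-P, and 0.45 and 0.14 on HuH-7-M. C content, chosen because it followed intensity under the scanner's names and so no independent check of them, had rho = 0.59 on HuH-7-P by the scanner's names and 0.091 by the table's, and on HuH-7-M 0.57 and 0.039. Pearson's r for C content was 0.30 and -0.036 on HuH-7-P. The scanner's names are used throughout.

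**Figure D4:**
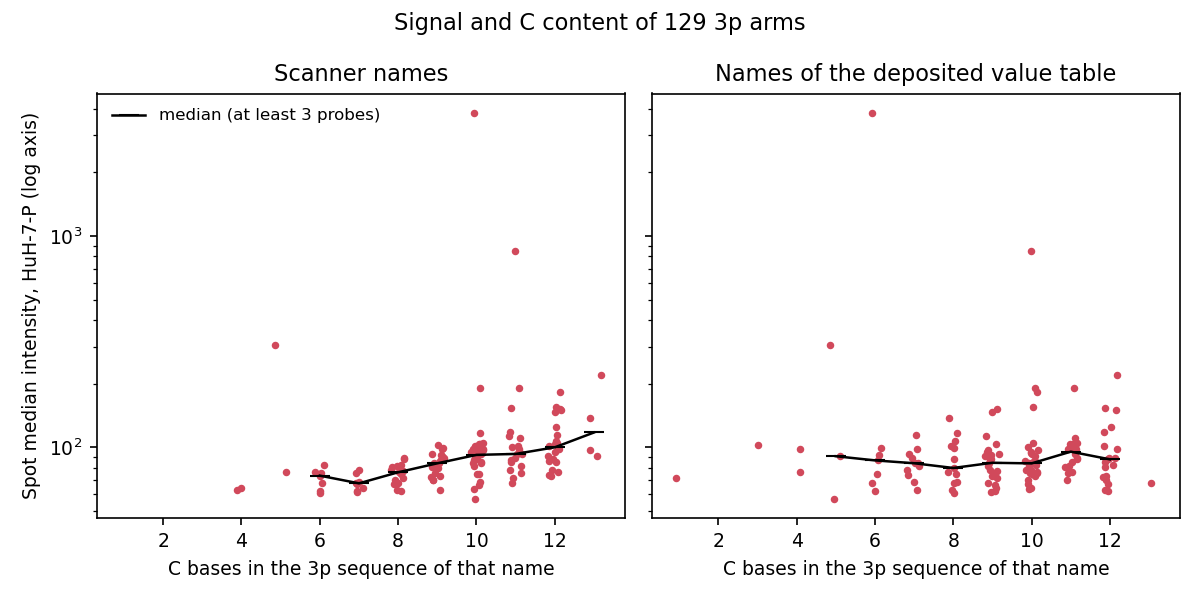
Spot median intensity on HuH-7-P (log axis) against the number of C bases in the sequence of each name, for 129 3p arms under the scanner's names (left) and under the names of the deposited table (right). Points are probes, jittered sideways, and lines join medians of at least 3 probes; from 7 C upward the medians climb on the left (rho over all points 0.59) and not on the right (rho = 0.091), for a feature chosen under the scanner's names.

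Seeds were mostly private to a member. The 149 sequences held 144 distinct seeds, with 5 pairs of members sharing one, and 35 members shared a seed with any other probe that had a sequence. The 3 pairs in which a member exceeded the No Probe limit are shown with the seed in capitals, to set like seeds beside their values.
miR-6801-3p: aCCCCUGCcacucacuggcc
miR-6810-3p: uCCCCUGCucccuuguuccccag
miR-6862-3p: cCUCACCCagcucucuggcccucu
miR-6784-3p: uCUCACCCcaacucugccccag
miR-6819-3p: aAGCCUCUguccccaccccag
miR-6877-3p: cAGCCUCUgcccuuggccucc
miR-6801-3p was at 0.24 and its partner miR-6810-3p at -0.16 (signal 26.4 and 17.8). miR-6862-3p (38.0 and 40.7) was at 0.067 and miR-6784-3p (31.7 and 26.3) at -0.085. miR-6819-3p (21.8 and 20.2) was at -0.023 and miR-6877-3p (35.8 and 39.7) at 0.083. The members of each pair thus lay on opposite sides of 0, within 2 spot spreads except for miR-6801-3p. miR-6766-3p carries the seed GAUUGUC of miR-219a-5p, a miRNA known from the nervous system.

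Members whose names differ by a letter were also unlike in sequence. miR-6769a-3p (gAGCCCCUcucugcucuccag, within MGRN1) read 44.2 and 40.8 (-0.023), and miR-6769b-3p (cCCUCUCUgucccacccauag, within IKBKE) 8.43 and 14.9 (0.16). miR-6780a-3p (cUCCUCUGuuuucuuuccuag, within EZH1) read 18.5 and 17.9 (-0.016), and miR-6780b-3p (uCCCUUGUcuccuuucccuag, within ABCC10) 33.6 and 40.7 (0.14). All 4 end in AG, and their differences were within 2 spot spreads. At the edges of the number range, miR-6726-3p read 35.9 and 37.2 and miR-6895-3p 10.7 and 9.94. The nearest 3p probes outside it were miR-6722-3p, at 322 and 476 (0.51), and miR-7106-3p, at 30.3 and 34.0 (0.079).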

How the data were processed

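Each array's scanner output gives, per the file headers, the spot median intensity at 635 nm of 1 spot per miRNA probe, with no background subtracted. The authors' deposited table holds linear intensity values that could be rebuilt from it as BLANK-subtracted medians scaled to 25; its making is otherwise not stated by the labels. The column named as background tracked the spots (r = 0.992 of their logarithms on either array) and was used only as an alternative. BLANK means and limits left out the top and bottom 5% of these spots. Background was corrected with nec of limma 3.58.1 (R 4.3.3, offset 50), followed by quantile normalization over 2565 probes and log2; log2 differences are HuH-7-M less HuH-7-P, and the size threshold was 1. The code was tested on simulated data. Named members were the 10 brightest, the 8 highest and 8 lowest differences, the 3 largest bounds each way, members sharing a name or a seed, 4 hairpins with the widest arm gaps each way, and the edges of the range. The members and lists were chosen with earlier results of these data known. No member carried a bad-spot entry. The number of arrays limits the precision. No date or batch is given for the arrays, so batch and culture cannot be told apart. Sequences are from RefSeq (GRCh38.p14).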

Additional observations from a re-analysis of the deposited data

How the results depend on the processing

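Of 13 alternatives, the counts of members at least 2-fold apart (0 higher and 0 lower) changed in 4: after plain BLANK subtraction they were 2 higher and 1 lower, with the background column 1 lower, on the Spike Control scale 2 lower, and in the authors' deposited values 1 higher. Among all 1593 measured probes, 49 were higher and 75 lower after plain BLANK subtraction, and 20 and 18 with the background column. On the Spike Control scale these counts were 2 and 73, and in the deposited values 62 and 66 of 1585. The members' median difference of 0.018 stayed between -0.0029 and 0.076, except on the Spike Control scale, where it was -0.57 beside -0.58 for all measured probes. Under the No Probe limit 65 of the 147 members remained above background, and the 5p spot was brighter in 91.5% of hairpins on HuH-7-P against 90.8% on HuH-7-M. Of 33 named members measured on both arrays, 16 lay on the other side of 0 with the background column and 16 on the Spike Control scale, 1 with unscaled arrays and 5 with the 75th percentile; none did under the other settings (offset of 16, no background correction, no offset, median scaling, cyclic loess, deposited values). Differences of members near BLANK are limited by signal over background, and no replicate could be left out with 1 array per culture. No paired analysis was possible because each group has 1 sample.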
